A study of Mus musculus with 4 samples.

Results

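The genes described here are the intracellular calcium release channels, the plasma membrane sodium-calcium exchangers and the pore of the mitochondrial calcium uniporter. They are Itpr1, Itpr2 and Itpr3, the inositol trisphosphate (IP3) receptors, Ryr1, Ryr2 and Ryr3, the ryanodine receptors, Slc8a1, Slc8a2 and Slc8a3, the exchangers, and Mcu, the uniporter pore. They were chosen by name, and all 10 were found by Entrez identifier among the 12700 genes of the count table. RNA came from brains of C57BL/6 mice aged 9 months, either Ids-ko (labelled Ids-/-), a model of Hunter syndrome in which the gene of the lysosomal enzyme iduronate 2-sulfatase is disrupted, or wild type (wt) littermates. Each brain was divided into cerebral cortex (Cx) and a block with midbrain, diencephalon and hippocampus (M), which per the study's dissection also takes in the striatum. RNA of 7 mice was pooled for each condition and sequenced as 1 library. The libraries are labelled CxH and MH for Ids-ko and CxWT and MWT for wt mice. No condition thus had a replicate, and a test between 2 libraries compares those libraries, not the conditions.

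IP3 receptors and ryanodine receptors are large tetrameric channels of the endoplasmic reticulum that release stored calcium, the former after G protein-coupled receptors and phospholipase C have produced IP3, the latter mainly when calcium itself rises. The exchangers use the sodium gradient to move calcium out across the plasma membrane, and the uniporter lets mitochondria take up calcium from the cytosol. In brain, Itpr1 is known as the main IP3 receptor of neurons, and different neurons and glia are known to use different exchanger isoforms.

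The libraries were first checked against their labels. Ids itself had 135 RPM (reads per 1000000 aligned reads of the library) in the library labelled CxH, 354 in CxWT, 368 in the library labelled MH and 155 in the library labelled MWT. Its level was thus low in CxH and MWT and high in CxWT and MH, and the label of MH and that of MWT go against it. The 14 marker genes of cortical excitatory neurons summed to 2139 RPM in CxH and 1989 in MH, against 398 in CxWT and 347 in MWT. The 16 measured markers of midbrain and diencephalon summed to 26.0 RPM in CxH and 35.9 in MH, against 525 in CxWT and 451 in MWT, and En1 had 0 reads in MH, a count that allows up to 3 reads. The area labels of CxWT and MH therefore go against the markers. In what follows CxH vs. CxWT and MH vs. MWT set a library rich in cortical markers against one rich in midbrain markers, while CxH vs. MH and MWT vs. CxWT set a library low in Ids against one high in Ids, on the same side of both area marker sums. The area markers were not equal within the latter pairs. Of the 16 markers of midbrain and diencephalon, 2 were called higher and 3 lower in CxH vs. MH, with Tph2 at -0.97. They ran from Oxt at -2.63, on 1 read against 6, to En2 at 1.44, on 28 reads against 10. In MWT vs. CxWT 3 were called lower, with Oxt at -1.29, and 15 of 16 were below 0. Each library enters 2 of these comparisons. The libraries held 16380080 to 23475080 reads on genes. A ± gives the counting standard error. Intervals of levels are 95% exact Poisson intervals of the counts, and those of log2 ratios are normal approximations from the counting standard error, both covering counting error only. In bulk tissue, fewer cells of a type and less RNA per cell cannot be told apart.

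Calls needed a log2 ratio of RPM of 0.7 or more in either direction, together with p under 0.05 by a Poisson likelihood ratio test between the libraries. In CxH vs. CxWT, 3 of the 10 genes were called higher (Itpr1, Ryr1 and Slc8a2), where 9.46% of all genes were, and 1 was called lower (Slc8a3), where 11.5% of all genes were. In MH vs. MWT, 4 were called higher (the same 3 with Ryr2), where 12.3% of all genes were, and 0 were called lower, where 12.7% were. In CxH vs. MH, 0 of the 10 were called in either direction, against 2.43% of all genes higher and 1.06% lower. In MWT vs. CxWT, 0 were called as well, against 2.11% of all genes higher and 5.43% lower. The median log2 ratio of the 10 genes was 0.38 in CxH vs. CxWT and 0.26 in MH vs. MWT, beside -0.09 and -0.07 over all genes. It was -0.05 in CxH vs. MH and -0.18 in MWT vs. CxWT, beside 0.01 and -0.04 over all genes. A trend with GC content and length, described further on, was also subtracted. The 10 genes then had medians of 0.27, 0.06, -0.02 and 0.02 in the same order, beside -0.06, -0.06, 0.03 and -0.03 over all genes. In MH vs. MWT 5 of the 10 were then above 0 and 5 below.

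The genotype label was also fitted over all 4 libraries by edgeR's quasi-likelihood test, with the area label as a second term, a fit added after the values were seen. It left 1 residual degree of freedom, in which the spread is the interaction, where CxH and MWT, both low in Ids, stand against CxWT and MH. Since each brain was divided into both areas, the Cx and M libraries of a genotype come by their labels from the same mice. Each genotype as labelled then has 1 independent pool, and the fit treats areas of that pool as replicates. The Ids levels go against the labels of MH and MWT, so which libraries share mice is not settled. The p-values of the fit are too small for a test of genotype, and only calls are given, as a description of these libraries. At an adjusted p under 0.05 (Benjamini-Hochberg over 12692 genes), 4 of the 10 genes were higher in the libraries labelled Ids-ko, where 8.76% of all genes were, and 1 was lower, where 9.90% were. The higher genes were Slc8a2, with a log2 difference of 2.02, Ryr1, with 1.72, Itpr1, with 1.49, and Ryr2, with 0.75, and the lower was Slc8a3, with -0.82. For the area label the same fit called 0 genes in the table, with 615 at an unadjusted p under 0.05, none of them among the 10. The libraries labelled Ids-ko are also those rich in cortical markers, so the genotype label and the marker side cannot be told apart in this fit.

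**Figure D1:**
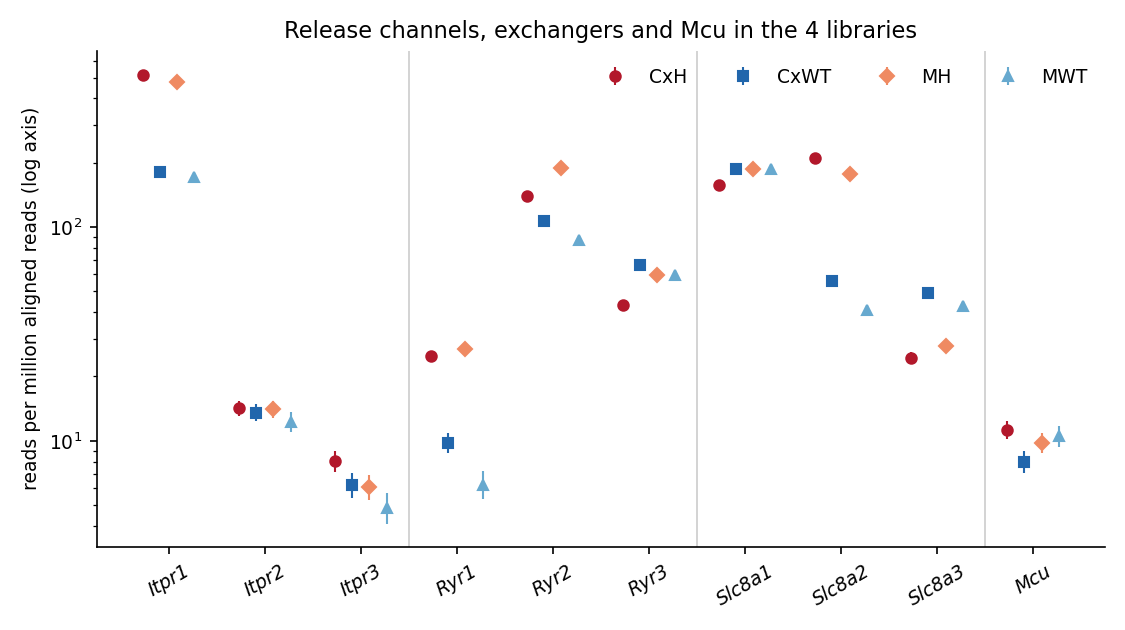
RPM (log axis) of the 10 genes in the 4 libraries, as points with 95% exact Poisson intervals, with lines dividing the families. Itpr1, Ryr1 and Slc8a2 are higher in CxH and MH than in CxWT and MWT, Slc8a3 is lower there, and Itpr2 and Slc8a1 lie close together in all libraries.

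Itpr1, the IP3 receptor typical of neurons (chromosome 6, 108163112 to 108501103 on NCBI37/mm9), was the most abundant of the 10 genes by reads in CxH and MH. It had 517 RPM (95% interval 509.5 to 524) in CxH, 476 (469 to 483) in MH, 181 (176 to 185) in CxWT and 172 (168 to 177) in MWT. The intervals of CxWT and MWT overlapped, and both lay far below those of the other libraries. The log2 ratio was 1.52 ± 0.021 in CxH vs. CxWT and 1.47 ± 0.023 in MH vs. MWT, a level 2.86 and 2.76 times as high. On the other side it was 0.12 ± 0.015 in CxH vs. MH and -0.07 ± 0.028 in MWT vs. CxWT. When the sum of squares of log2 RPM over the 4 libraries was divided into the genotype label, the area label and their interaction, 99.6% of that of Itpr1 lay along the genotype label, where CxH and MH stand against CxWT and MWT. The median was 60.0% over all genes that reached 100 reads in each library.

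Itpr2, an IP3 receptor known from glia and from heart, had 14.2 RPM in CxH, 14.0 in MH, 13.5 in CxWT and 12.2 in MWT. All 4 intervals overlapped, and its widest log2 ratio was 0.20 ± 0.099, in MH vs. MWT. Itpr3, known from epithelial and secretory cells, was the scarcest of the family, with 8.05 RPM in CxH, 6.08 in MH, 6.19 in CxWT and 4.84 in MWT. Its interval in CxH (7.18 to 9.00) lay above those of the other 3 libraries, which overlapped each other in turn. None of its log2 ratios reached the threshold, from -0.36 ± 0.16 in MWT vs. CxWT to 0.41 ± 0.13 in CxH vs. MH. Within the family, the step between the 2 kinds of library was thus called in Itpr1 alone.

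Among the ryanodine receptors, Ryr1, the release channel of skeletal muscle that is also present in brain (chromosome 7, 29788359 to 29910170), was the scarcest. It had 956 reads in CxH, 1006 in MH, 329 in CxWT and 180 in MWT, which is 24.8, 26.9, 9.79 and 6.22 RPM. The intervals of CxH and MH overlapped, CxWT lay well below them, and MWT lay lowest. As log2 ratios these levels differed by 1.34 ± 0.092 in CxH vs. CxWT and by 2.11 ± 0.12 in MH vs. MWT. Of the skeletal muscle markers, 1 of 10 was in the table, Acta1, at 21.2 RPM in CxH, 13.5 in MH, 10.2 in CxWT and 8.95 in MWT, and its part in the Ryr1 levels was not tested.

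Ryr2, the cardiac release channel, carried most ryanodine receptor reads in every library (chromosome 13, 11645370 to 12199212). It had 139 RPM in CxH, 190 in MH, 107 in CxWT and 86.7 in MWT, and none of the 4 intervals overlapped another. In CxH vs. CxWT its log2 ratio was 0.38 ± 0.031, under the threshold, and 1.13 ± 0.034 in MH vs. MWT, where it was called. Those comparisons share no library, but the difference between them is the interaction, and a fit with that term leaves no residual degrees of freedom. MH was the highest and MWT the lowest library, and 19.8% of the sum of squares of Ryr2 lay along the interaction, where CxH and MWT stand against CxWT and MH. After subtraction of the trend with GC content and length that is described further on, this share was 9.50%, beside a median of 14.8% over all genes.

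Ryr3, the isoform first known from brain (chromosome 2, 112471512 to 113057253), had a different profile. It had 43.3 RPM in CxH, 60.0 in MH, 66.2 in CxWT and 59.4 in MWT. CxH was the low library, MH and MWT overlapped, and CxWT lay just above them. The log2 ratio was -0.61 ± 0.047 in CxH vs. CxWT and 0.01 ± 0.046 in MH vs. MWT, and neither was called. Its sum of squares was split between the genotype label, with 42.2%, and the interaction, with 46.4%, but this split did not hold. After subtraction of the trend with GC content and length the shares were 77.2% and 10.5%, and with TMM factors the share along the genotype label was 28.8%.

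**Figure D2:**
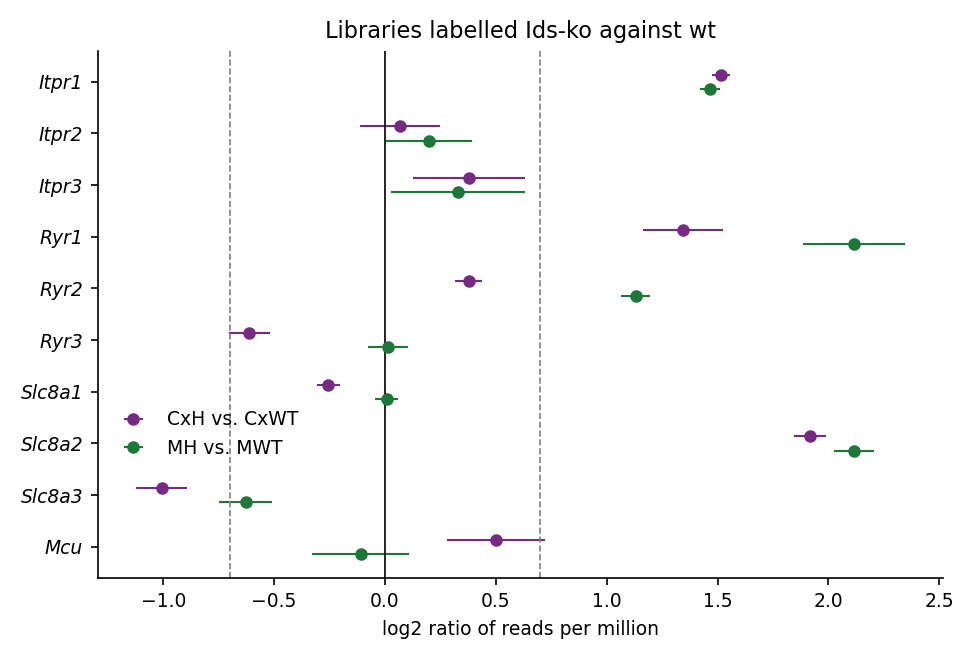
Log2 ratio of RPM of the 10 genes in CxH vs. CxWT and in MH vs. MWT, with 95% counting intervals. Dashed lines mark the threshold of 0.7 in each direction. Itpr1, Ryr1 and Slc8a2 lie beyond it on the right in both comparisons, Ryr2 in MH vs. MWT, and Slc8a3 lies beyond it on the left in CxH vs. CxWT.

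The exchangers differed from each other in direction. Slc8a2, the exchanger that is largely restricted to brain (chromosome 7, 16715509 to 16745858), had 8142 reads in CxH, 6593 in MH, 1882 in CxWT and 1179 in MWT, which is 211, 176, 56.0 and 40.7 RPM. CxH and MH were both high, CxWT and MWT both low, and no interval overlapped another. The log2 ratio was 1.92 ± 0.037 in CxH vs. CxWT and 2.12 ± 0.046 in MH vs. MWT, a level 3.78 and 4.33 times as high. Slc8a2 had the widest range of the 10 genes, 2.38 on the log2 RPM scale, and 96.7% of its sum of squares lay along the genotype label.

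Slc8a3, found in brain and in skeletal muscle (chromosome 12, 82298902 to 82434167), went the other way. It had 24.5 RPM in CxH, 27.6 in MH, 49.2 in CxWT and 42.7 in MWT, so that the libraries high in Slc8a2 were low in Slc8a3. Its log2 ratio was -1.01 ± 0.059 in CxH vs. CxWT, where it was called, and -0.63 ± 0.061 in MH vs. MWT, where it was not. Of its sum of squares, 94.8% lay along the genotype label.

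Slc8a1, the exchanger of heart and many other tissues (chromosome 17, 81785359 to 82048947), had 157 RPM in CxH, 187 in MH, 187 in CxWT and 186 in MWT. The last 3 overlapped, and CxH alone lay lower. The log2 ratio was -0.26 ± 0.026 in CxH vs. CxWT and 0.01 ± 0.026 in MH vs. MWT, both under the threshold. The total of the exchanger reads was 393 RPM in CxH and 391 in MH against 292 in CxWT and 269 in MWT.

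Since Slc8a2 and Slc8a3 went in opposite directions in CxH vs. CxWT and in MH vs. MWT, the 250 bases before their RefSeq start sites are shown here, from GRCm38.p6, a later build than that of the counts. Of the 10 genes, 8 matched the RefSeq promoter table, all but Itpr1 and Ryr3. Capitals mark GGGCGG, a GC box, on either strand (so CCGCCC also), and CANNTG, an E-box, which reads alike on both strands, and no marked motif overlapped another. The window of Slc8a2 is chr7:16129576-16129825 on the plus strand and that of Slc8a3 is chr12:81333181-81333430 on the minus strand, both written 5′ to 3′ along the gene.
Slc8a2: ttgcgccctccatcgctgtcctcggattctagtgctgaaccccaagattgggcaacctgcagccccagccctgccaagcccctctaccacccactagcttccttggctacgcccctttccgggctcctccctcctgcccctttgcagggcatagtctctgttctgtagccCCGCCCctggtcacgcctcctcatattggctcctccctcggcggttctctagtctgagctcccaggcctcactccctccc
Slc8a3: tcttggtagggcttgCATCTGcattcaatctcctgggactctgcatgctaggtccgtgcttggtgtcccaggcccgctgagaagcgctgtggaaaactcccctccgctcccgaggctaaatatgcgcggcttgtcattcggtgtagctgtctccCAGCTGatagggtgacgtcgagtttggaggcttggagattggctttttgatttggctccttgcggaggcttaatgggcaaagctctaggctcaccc
Slc8a2 held 1 GC box and 0 E-boxes, and Slc8a3 held 0 GC boxes and 2 E-boxes. The windows had a GC content of 63.2% and 56.0%, with 9 and 11 CpG dinucleotides. Of the 13044 windows of genes in the count table, 57.2% held GGGCGG and 57.95% held CANNTG, with a median GC content of 60.0%, so each motif was common, and these letters are a description only.

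Mcu, the uniporter pore (chromosome 10, 58909732 to 59079440), was scarce, with 434 reads in CxH, 365 in MH, 268 in CxWT and 305 in MWT, which is 11.3, 9.77, 7.97 and 10.5 RPM. CxWT was the lowest library, with an interval that met that of MH, and the intervals of CxH, MH and MWT overlapped. Its log2 ratio was 0.50 ± 0.11 in CxH vs. CxWT and -0.11 ± 0.11 in MH vs. MWT. Along the interaction lay 66.0% of its sum of squares, where the median over all genes was 10.01%, and after subtraction of the same trend 51.4%, beside 14.8%.

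Within each family the share of reads does not depend on how libraries are scaled to each other. Itpr1 gave 95.9% of the IP3 receptor reads in CxH (95% exact Clopper-Pearson interval 95.6 to 96.1) and 96.0% in MH (95.7 to 96.2). It gave 90.2% in CxWT (89.4 to 90.9) and 91.0% in MWT (90.2 to 91.7), so that CxH and MH overlapped each other, CxWT and MWT overlapped each other, and the pairs did not meet.

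The ryanodine receptors were also divided between CxH and MH on one side and CxWT and MWT on the other, but with differences within a side, since the intervals of Ryr1 in CxH and MH did not overlap, nor did those of Ryr1 and of Ryr3 in CxWT and MWT. Ryr3 gave 20.9% of their reads in CxH and 21.7% in MH against 36.1% in CxWT and 39.0% in MWT. Ryr2 gave 67.2% and 68.6% against 58.5% and 56.9%, and Ryr1 gave 11.96% and 9.73% against 5.34% and 4.08%. Ryr2 was thus the main isoform everywhere, and Ryr3 took a larger part where Ryr1 took a smaller.

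Among the exchangers, Slc8a2 led by reads in CxH and came near to Slc8a1 in MH, while Slc8a1 led in CxWT and MWT. Slc8a2 gave 53.9% of the reads in CxH and 45.1% in MH, but 19.2% in CxWT and 15.1% in MWT. Slc8a1 gave 39.9% in CxH, 47.8% in MH, 64.0% in CxWT and 69.0% in MWT. Slc8a3 gave 6.23% and 7.07% against 16.8% and 15.9%. When reads were divided by the length of the longest protein-coding transcript, Slc8a1 led in every library, with 50.2% in CxH, but the transcript used for it spans the coding part only, 2913 bases, which raises its value per length. The shares of the receptor families moved by less than 3 percentage points under this division.

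**Figure D3:**
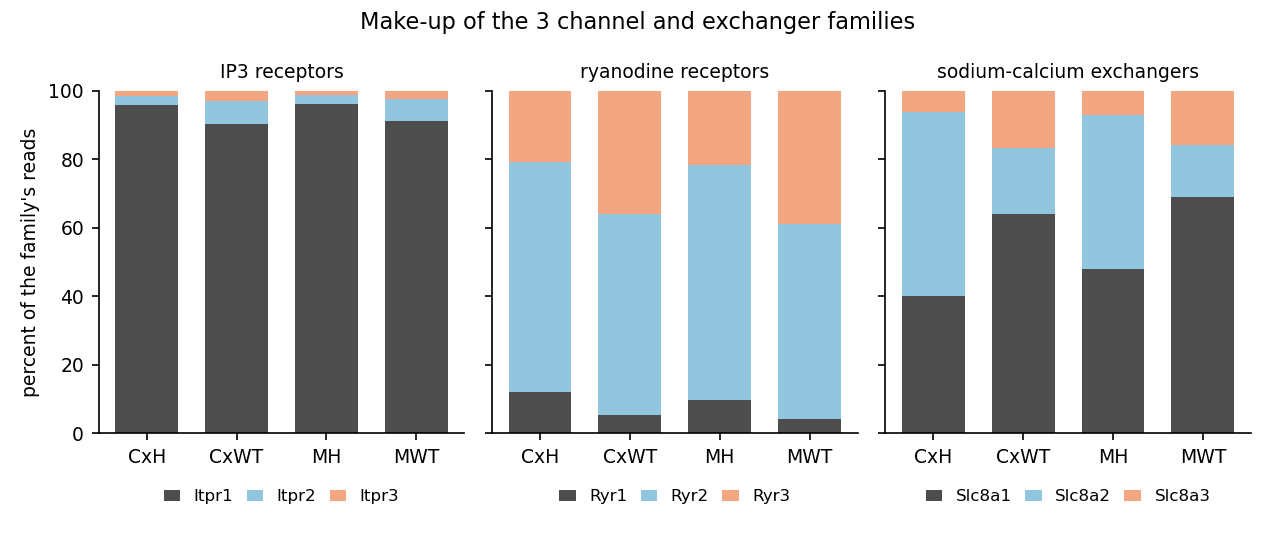
Stacked bars of the percent of reads that each isoform gave to its family in the 4 libraries, for the IP3 receptors, the ryanodine receptors and the sodium-calcium exchangers. The bars of CxH and MH resemble each other, as do those of CxWT and MWT, with more Itpr1, Ryr1, Ryr2 and Slc8a2 in the former.

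Per length the genes can be set against each other, except for Slc8a1, whose value is raised by its short transcript and stood at 53.8 RPM per kilobase in CxH, 64.1 in MH, 64.2 in CxWT and 63.8 in MWT, the highest of the 10 genes in each library. In RPM per kilobase of transcript (RPKM), Itpr1 was at 52.5 in CxH and 18.3 in CxWT, Slc8a2 at 48.4 and 12.8, and Slc8a3 at 4.93 and 9.91. Ryr2 was at 8.29 in CxH and 6.38 in CxWT, Ryr3 at 2.81 and 4.30, and Mcu at 3.92 and 2.78. Ryr1, Itpr2 and Itpr3 reached at most 1.75 RPKM (Ryr1 in MH) in the 4 libraries. On this scale Itpr1 exceeded Ryr2 in each library, in MH by 48.4 to 11.3 and in MWT by 17.5 to 5.16 RPKM.

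Over 10707 genes, the log2 ratio was correlated with the GC content of the transcript, at a Spearman rho of 0.461 in CxH vs. CxWT and 0.487 in MH vs. MWT, a relation across genes, which are not independent replicates. This touches the 10 genes unequally, since Slc8a2, Ryr1 and Itpr3 have a GC content of 59.3%, 58.0% and 57.5% against a median of 50.4% over the table. After the trend with GC content and length was subtracted, the log2 ratio of Slc8a2 was 1.63 in CxH vs. CxWT and 1.46 in MH vs. MWT. That of Ryr1 was 1.10 and 1.29, and that of Itpr1 was 1.54 and 1.25. Ryr2 stood at 0.42 and 0.83. Slc8a3 stood at -1.13 and -0.89, and was then called lower in both comparisons. All calls of the uncorrected ratios among the 10 genes remained.

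Markers of other cells also differed in CxH vs. CxWT and MH vs. MWT, not all in the same direction in both. Of the 14 cortical excitatory markers, 11 were called higher in CxH vs. CxWT and 11 in MH vs. MWT, with Rorb lowest, at 0.03, in the former and a range from Cux1 at -0.13 to Fezf2 at 4.07 in the latter. All 16 markers of midbrain and diencephalon were called lower in both, from Oxt at -9.56 to En2 at -2.38 and from Slc6a4 at -8.17 to Th at -2.77. The 10 striatal markers summed to 988 and 803 RPM in CxH and MH against 393 and 397 in CxWT and MWT, with 7 called higher in each comparison and Tac1 called lower in MH vs. MWT, at -0.96. The 10 oligodendrocyte markers summed to 4895 and 5098 against 9319 and 7464, and 9 choroid plexus markers, with most of their reads from Ttr, to 588 and 642 against 149 and 273. Of the choroid plexus markers 5 were called higher in CxH vs. CxWT and 4 in MH vs. MWT, whereas Otx2 was called lower in both, at -1.97 and -1.57, and Clic6 stood at 0.19 and -0.39. Of 10 microglial markers, 7 were called higher in CxH vs. CxWT, where all 10 were above 0 with a median of 0.93, while 4 were called lower in MH vs. MWT, with a median of -0.55. The astrocyte marker Gfap likewise stood at 1.11 in the former and -1.13 in the latter, and of the 10 astrocyte markers 2 were called higher and 1 lower in the former and 2 lower in the latter. Over the 4 libraries the sums ranged from 3009 to 4082 RPM for astrocytes, 155 to 309.5 for hippocampus, 109 to 163 for vessel wall and 50.3 to 102 for cerebellum. The part of these cells in the ratios of the 10 genes was not tested.

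Set apart from that step, the difference between libraries low and high in Ids stayed under the threshold for all 10 genes. In CxH vs. MH the log2 ratios of the 10 genes ran from -0.47 (Ryr3) to 0.41 (Itpr3), and in MWT vs. CxWT from -0.65 (Ryr1) to 0.40 (Mcu), where Ids itself was at -1.44 and -1.19. The ryanodine receptors were below 0 in both, with each of the 4 scalings tried, though not after the correction for GC content given below for Ryr3. Ryr2 was at -0.45 ± 0.026 and -0.31 ± 0.038, Ryr3 at -0.47 ± 0.047 and -0.16 ± 0.046, and Ryr1 at -0.12 ± 0.065 and -0.65 ± 0.13. That of Ryr1 in CxH vs. MH had an interval from -0.24 to 0.01 and so reached 0.

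With Slc8a3, at -0.18 ± 0.065 and -0.20 ± 0.054, and Slc8a1, at -0.26 ± 0.025 and -0.01 ± 0.027, 5 of the 10 genes were below 0 in both comparisons, as were 23.9% of all genes. Slc8a1 in MWT vs. CxWT was above 0 with each of the 3 other scalings. Mcu was the only gene of the 10 above 0 in both, at 0.21 ± 0.10 and 0.40 ± 0.12, as were 20.4% of all genes. Itpr1, Itpr2, Itpr3 and Slc8a2 were above 0 in CxH vs. MH and below 0 in MWT vs. CxWT.

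In these comparisons the trend with GC content had opposite signs, with a Spearman rho across genes of 0.582 in CxH vs. MH and -0.629 in MWT vs. CxWT. Once it was subtracted, Slc8a2 moved from 0.26 and -0.46 to 0.11 and 0.06, and Itpr3 from 0.41 and -0.36 to 0.32 and 0.17. Ryr1 moved to -0.16 and -0.03, Ryr2 to -0.30 and -0.11, and Ryr3 to -0.30 and 0.01. Mcu stayed at 0.25 and 0.33. The 10 genes then divided into 5 above 0 in both, 4 below 0 in both and 1 of opposite signs, beside 30.8% and 30.5% of all genes above and below.

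**Figure D4:**
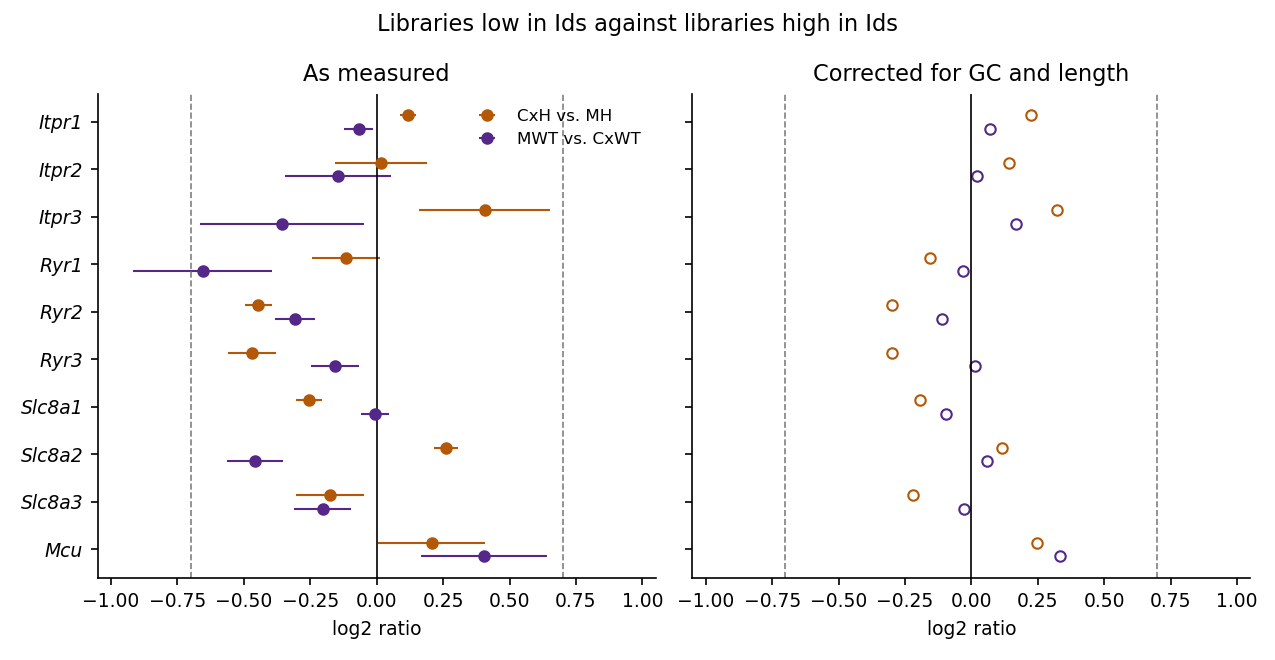
Log2 ratios of the 10 genes in CxH vs. MH and MWT vs. CxWT, which set a library low in Ids against one high in Ids, as measured with 95% counting intervals (left) and after subtraction of the trend with GC content and length (right, without intervals). Dashed lines mark the threshold of 0.7, which no point passes. After the subtraction 8 of the 10 points of MWT vs. CxWT and 5 of the 10 of CxH vs. MH lie nearer to 0.

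Markers of microglia moved between these libraries. Of 10 microglial markers, 6 were called higher in CxH vs. MH and 5 in MWT vs. CxWT, with Tyrobp at 1.35 and 1.51. The list summed to 674 RPM in CxH and 560 in MWT against 399.5 in MH and 348 in CxWT. Of 10 astrocyte markers 1 was called in each comparison, Gfap, at 1.25 and 0.99, and 4 of the 10 were below 0 in MWT vs. CxWT. Of 9 choroid plexus markers 5 were called higher in MWT vs. CxWT and 1 lower in CxH vs. MH. Their part in the ratios of the 10 genes was not tested.

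Of 70 other genes of calcium stores and calcium export, 59 were in the table. In CxH vs. CxWT, 9 were called higher and 4 lower, in MH vs. MWT 12 higher and 9 lower, in CxH vs. MH 0, and in MWT vs. CxWT 1, higher. Over all genes the shares called higher and lower were 9.46% and 11.5%, 12.3% and 12.7%, 2.43% and 1.06%, and 2.11% and 5.43% in the same order. With TMM factors the split became 11 higher and 2 lower in CxH vs. CxWT and 13 and 6 in MH vs. MWT. Their median log2 ratio was 0.08, -0.06, 0.05 and 0.04 in these comparisons, beside -0.09, -0.07, 0.01 and -0.04 over all genes. After the correction for GC content and length there were 11 calls in CxH vs. CxWT (8 higher and 3 lower), 12 in MH vs. MWT (8 higher and 4 lower) and 0 in MWT vs. CxWT, while the calls over all genes in MH vs. MWT fell from 3170 to 2243. The genes that lost or gained a call are named below.

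Partners and regulators of the release channels held the widest ratios, with 25 of 30 genes in the table. In CxH vs. CxWT 6 were called higher and 2 lower, and in MH vs. MWT 7 higher and 2 lower. Itpka, a neuronal kinase that phosphorylates IP3, had 4655 reads in CxH, 4818 in MH, 600 in CxWT and 327 in MWT, with log2 ratios of 2.76 ± 0.063 and 3.51 ± 0.082. Itpkb, another IP3 kinase, had 1406, 1018, 2735 and 2163 reads in the same order, with log2 ratios of -1.16 ± 0.047 and -1.46 ± 0.055. Itpka was thus higher and Itpkb lower in CxH and MH than in the other libraries, but both were below 0 in MWT vs. CxWT, at -0.66 and -0.12. Itpkc, the third isoform, was called in neither comparison, at 0.32 and 0.22.

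Homer1, a postsynaptic scaffold that binds IP3 receptors, was at 1.49 and 1.70. The 3 junctophilins in the table, which tether the endoplasmic reticulum to the plasma membrane, were called higher in both comparisons, Jph1 at 1.73 and 1.55, Jph4 at 1.03 and 1.43, and Jph3 at 0.92 and 1.07. After the correction for GC content and length Jph1 alone stayed past the threshold in both, with Jph4 at 0.72 and 0.69 and Jph3 at 0.61 and 0.37. Mrvi1, a partner of IP3 receptors in cGMP signaling, was called lower in both, at -1.58 and -1.29. Fkbp1a, which binds ryanodine receptors, was called higher in CxH vs. CxWT, at 0.84, and stood at -0.06 in MH vs. MWT, whereas Homer3, at 0.92, and the calmodulin gene Calm3, at 0.87, were called in MH vs. MWT and stood at 0.54 and 0.55 in CxH vs. CxWT. The correction took Homer3 and Calm3 to 0.33 and 0.47 in MH vs. MWT, under the threshold, and took another calmodulin gene, Calm2, from 0.35 to 0.97, past it.

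Of the plasma membrane pumps and potassium-dependent exchangers, 7 of 9 were in the table, with 3 called higher in CxH vs. CxWT and 4 in MH vs. MWT. They were Slc24a4 (1.23 and 1.49), Atp2b4 (0.73 and 1.13), Atp2b1 (0.73 and 0.85) and, in MH vs. MWT, Atp2b2 (0.67 and 0.89). Of these calls that of Atp2b2 ended with the correction, at 0.55. Slc24a3, another of these exchangers, stood at -0.67 and -0.61 and became called lower in both comparisons after the correction, at -0.82 and -0.88. The store pumps, of which 3 of 5 were in the table, had 0 calls, and Atp2a2, the main one in brain, was at -0.07 and -0.26. Of the 5 genes of store-operated entry 1 was called, Stim2, at 0.80 in MH vs. MWT and 0.42 in CxH vs. CxWT.

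The calcium-binding proteins of the store, with 9 of 10 in the table, lay mostly on the other side, 8 of 9 below 0 in CxH vs. CxWT and 8 of 9 in MH vs. MWT, as were 57.5% and 54.5% of all genes. Rcn2 was called lower in both, at -0.75 and -0.96, and Pdia3 (-0.30 and -1.09), Canx (-0.69 and -0.81) and Rcn1 (-0.45 and -0.75) were called in MH vs. MWT. After the correction Pdia3, at -0.87, stayed called in MH vs. MWT, while Rcn2, at -0.45 and -0.66, Canx, at -0.52, and Rcn1, at -0.61, did not. Pdia3 was also the only one of the 59 genes called in MWT vs. CxWT, at 0.85 ± 0.025, and stood just under the threshold after the correction. Of 10 mitochondrial calcium genes, Micu2, a gatekeeper of the uniporter, was called lower in both comparisons, at -0.71 and -0.71, and Micu3 (-0.52 and -0.88) and Vdac2 (-0.19 and -0.72) in MH vs. MWT. The correction ended all of these calls, with Micu2 at -0.53 and -0.45, Micu3 at -0.47 and Vdac2 at -0.52. Mcu itself, at 0.50 and -0.11, was called in neither.

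**Figure D5:**
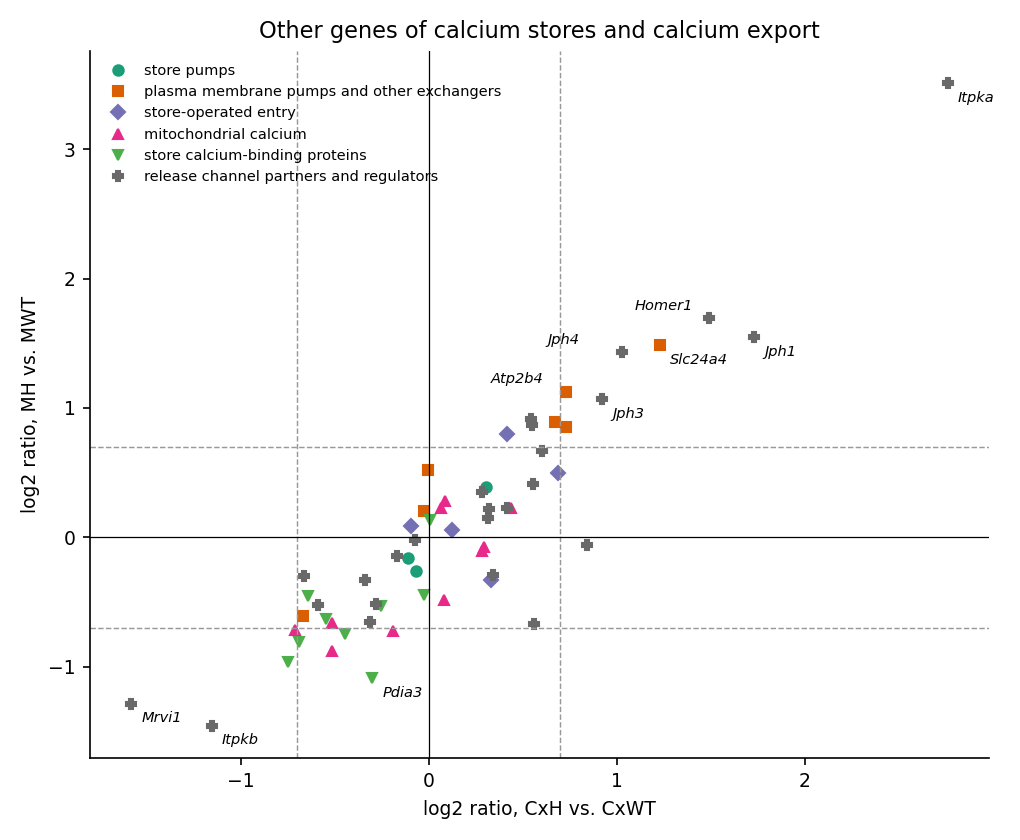
Log2 ratios of 59 other genes of calcium stores and calcium export in CxH vs. CxWT (horizontal) and MH vs. MWT (vertical), marked by list, with dashed lines at the threshold of 0.7 and names for called genes that reached 1 in either direction. Itpka, Homer1 and the junctophilins lie at the upper right, Itpkb and Mrvi1 at the lower left, and the store calcium-binding proteins mostly below 0 in both.

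Genes near in pattern to the 3 members of widest range were found by the Euclidean distance between log2 RPM centred over the 4 libraries, among genes that reached 100 reads in each library. For Slc8a2 they included Islr2, at a distance of 0.057. For Ryr1 they were Plekhg5, Ppp1r3g and Iqsec2, at 0.099, 0.12 and 0.15, and for Itpr1 they included Zfp365 and Gsg1l, at 0.077 and 0.085. With 4 points a gene this is a description only.

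Of the 25-base windows in the longest transcripts of the 10 genes, between 0.046% (Slc8a2) and 0.587% (Slc8a3) occurred without a mismatch in a transcript of another gene. The alignment allowed mismatches, so reads shared between paralogs were not measured by this count, and their part in the levels was not tested. No strand setting of the counts is given in the sources used here, so reads of antisense or overlapping genes cannot be told apart from those of the 10 genes.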

How the data were processed

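The authors sequenced 4 libraries of pooled poly(A) RNA on a SOLiD 3 Plus instrument, aligned reads to NCBI37/mm9 with PASS and deposited counts, the whole-number reads per gene of reads aligned to a single gene, for genes covered over most of their length, without normalization. The gene annotation behind the counts is not given in the sources used here. CxH had 23475080 reads on genes, MH 22057807, CxWT 20266394 and MWT 16380080, which is 56.6% to 61.0% of the aligned reads that the study lists, by which counts were scaled to RPM.

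Symbols were assigned by Entrez identifier to 12690 of 12700 genes, and GENCODE vM1 gave positions, and for 12232 genes the GC content and the length of the longest coding transcript. Calls were made over the whole table by a Poisson likelihood ratio test, after the DEGseq method of the authors, with their thresholds of 0.05 for p and 0.7 for the size of the log2 ratio. A count of 0 was set to 1 in ratios only. With 1 library per condition a model of all 4 conditions leaves no residual degrees of freedom for edgeR's quasi-likelihood test. That test was therefore fitted to the genotype label with the area label as a block. By the labels the areas of a genotype share their mice, and no p-value is printed. The trend with GC content and length was fitted with splines of 5 degrees of freedom over genes that reached 100 reads in each library. Alternatives were edgeR's exact test at an assumed variation of 0.1 or 0.2 between pools, p-values adjusted after Benjamini and Hochberg, scaling by column totals, TMM factors or DESeq2 size factors, a filter at 100 reads, a threshold of 1 on the log2 scale, a prior count of 0.5, and the correction for GC content and length.

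The 10 genes were given by name, and they and the lists of other genes were chosen with earlier results of these data known. Named beside them are Ids, called genes of the lists of other calcium genes that reached 100 reads in either library, genes that a sentence counts, markers of the highest and lowest ratio, and the 3 genes nearest in pattern to each of the 3 members of widest range. A few genes that this rule names are not reported here. The steps were tested on simulated data. R 4.3.3 with DESeq2 1.42.0 and edgeR 4.0.16 was used, and Python 3.11.15 with scipy 1.17.1, numpy 2.4.6 and matplotlib 3.10.9.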

Additional observations from a re-analysis of the deposited data

Results flagged for a closer look

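For some of the 10 genes the log2 ratio between areas as labelled had opposite signs in the libraries labelled Ids-ko and those labelled wt. The ratio of CxH over MH minus that of CxWT over MWT was -0.77 for Ryr1, -0.75 for Ryr2, -0.63 for Ryr3, -0.38 for Slc8a3, -0.26 for Slc8a1 and 0.61 for Mcu. For Ryr3, Slc8a1 and Mcu the ratio between genotypes as labelled had opposite signs in Cx and M too, and the ratio of CxH over CxWT minus that of MH over MWT was -0.63, -0.26 and 0.61. After subtraction of the trend with GC content and length the former difference was -0.19 for Ryr1, -0.41 for Ryr2, -0.29 for Ryr3, -0.25 for Slc8a3, -0.29 for Slc8a1 and 0.58 for Mcu, and it was 0.29 for Itpr1, 0.16 for Itpr2, 0.49 for Itpr3 and 0.17 for Slc8a2. In the ratio between areas Ryr3 then no longer had opposite signs in the 2 genotypes as labelled, while Itpr1, Itpr2, Itpr3 and Slc8a2 gained them. In the ratio between genotypes Ryr3 then no longer had opposite signs in Cx and M. Itpr2, at 0.11 and -0.06, and Itpr3, at 0.13 and -0.37, gained them there. With 1 library per condition these differences were not tested, and in Ryr1 (CxH vs. MH), Mcu and Ryr3 (MH vs. MWT) and Slc8a1 (MH vs. MWT and MWT vs. CxWT) a ratio of the pair lay within counting error of 0.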

How the results depend on the processing

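The counts of calls among the 10 genes stayed within 1.5 times of the reported ones under the 10 alternatives named under the processing, with 4 in CxH vs. CxWT, 4 or 5 in MH vs. MWT and 0 in the other comparisons. Among the 59 other calcium genes, a log2 threshold of 1 left 7 calls in CxH vs. CxWT, 10 in MH vs. MWT and 0 in MWT vs. CxWT, and the correction for GC content and length left 12 in MH vs. MWT and 0 in MWT vs. CxWT. Column totals, TMM factors and DESeq2 size factors each gave 2 in MWT vs. CxWT in place of 1, and the latter 2 scalings turned 9 higher and 4 lower into 11 and 2 in CxH vs. CxWT, and 12 and 9 into 13 and 6 in MH vs. MWT. Of 40 recomputed shares of the sum of squares along the genotype label, 19 moved by 5 percentage points or more. Of 200 recomputed log2 ratios of the 10 genes, 183 kept direction and call, 1 became called (Slc8a3 in MH vs. MWT, at -0.89) and 16 changed sign, none of them called. With the correction for GC content and length the latter became -0.06 (Itpr2), -0.37 (Itpr3) and -0.25 (Ryr3) in MH vs. MWT, and 0.07 (Itpr1), 0.021 (Itpr2), 0.17 (Itpr3), 0.012 (Ryr3) and 0.059 (Slc8a2) in MWT vs. CxWT. With column totals they became -0.047 (Ryr3) and -0.054 (Slc8a1) in MH vs. MWT, -0.031 (Itpr2) in CxH vs. MH, and 0.023 (Itpr1) and 0.083 (Slc8a1) in MWT vs. CxWT. TMM factors and DESeq2 size factors gave 0.041 for Slc8a1 in MWT vs. CxWT, and DESeq2 size factors gave -0.006 for Itpr2 in CxH vs. MH. The cause was not tested. The scalings moved the median over all genes by at most 0.093 on the log2 scale. Variation between pools of 1 condition was not measured, since each condition had 1 pool. The lowest counts, 140 reads of Itpr3 and 180 of Ryr1 in MWT, give the widest counting errors. The paired fit of the genotype label with area as replicate block was added after the data were seen. By the labels, which Ids goes against in MH and MWT, the same mice stand behind both areas. The fit called 5 of the 10 genes, the same 5 with TMM factors, and 22 of the 59, 12 higher and 10 lower. Over all genes it called 8.76% higher and 9.90% lower. Its calls needed an adjusted p under 0.05 and no log2 threshold. They therefore differ in kind from the 13 calls in CxH vs. CxWT and 21 in MH vs. MWT.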
